A study of Brassica napus with 33 samples.

Results

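Potassium transport in oilseed rape roots was followed through the 32 genes that the study's list of 302 ion transporter genes assigns to K alone, out of 101040 genes counted. The list was drawn from genes that were differentially expressed in at least one macronutrient deprivation. The 10-day libraries had thus already served to choose these genes. Their 10-day values and calls are therefore given as a description, since the tests behind these calls are not independent of that choice. The study's annotation divides them into carriers and channels. In all, 25 were annotated as K+ potassium transporters, the family known as KT/HAK/KUP, and 3 of these carried a further domain from another protein family. There were 3 two-pore domain potassium channels, 1 K+/H+ exchanger, 2 members of the major facilitator superfamily placed under a K transport term, and 1 gene without a domain annotation (BnaA09g35750D). By their identifiers 13 genes lie on the A subgenome and 19 on the C subgenome. The list holds no gene annotated as a Shaker-type channel. The sources used here pair none of the 32 identifiers with a gene name, a position or a sequence, so the genes are called by their identifiers.

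Plants take up K+ through carriers and channels in the plasma membrane of root cells and store most of it in the vacuole. KT/HAK/KUP carriers move K+, in well-studied members together with protons, and in Arabidopsis HAK5 works beside the channel AKT1 in K+ uptake, HAK5 being the route at low external K+, while other members of the family act in growth and K+ distribution. The two-pore channels of plants carry calcium-binding EF-hands on the cytosolic side, and several sit in the vacuolar membrane. K+/H+ exchangers move K+ against protons across membranes of plastids and other organelles.

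Roots of wild-type Brassica napus cv. Trezzor were sampled from hydroponic plants that had all spent 24 days on a complete nutrient solution. One of 6 macronutrients (N, Mg, P, S, K, Ca) was then withheld for 10 days, beside a 10-day control kept on the complete solution, or Cl, Co or Mn was withheld and the roots harvested together with a 22-day control. Each of the 11 conditions had 3 independent RNA-seq libraries, and the study's methods describe each replicate as a pool of 2 plants. The complete solution supplied K as its nitrate, phosphate, sulfate and chloride salts. Ca and Mg, too, were supplied partly as nitrate, chloride or sulfate salts. How all those salts were replaced in the other deprived solutions is not given in the sources used here. The K supply under N, P, S, Cl, Ca and Mg deprivation is therefore not known here. Whole roots were measured, and fewer cells of a type and less RNA per cell cannot be told apart in such samples. The root origin was not checked against marker genes, since no table used here pairs marker names with these identifiers.

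The libraries held 10115284 to 22841765 read pairs on genes at 10 days and 11765941 to 22053289 at 22 days. Levels are given as CPM, the read pairs of a gene relative to the total of its library after TMM scaling, always in the order of replicates 1, 2 and 3, and they compare libraries for a given gene but not genes with each other, because gene lengths were not used. The 22-day control replicates 1 and 2 stand apart from the other libraries in being almost alike. Their variance was 1.28 times counting noise over all genes and 0.989 times over the 32 K transporter genes, whereas the other 32 pairs of libraries of a condition ranged from 4.99 to 49.0 times (median 11.7). At 22 days the counts, and the differences of single genes that carry a p, are therefore given a second time with the counts of these libraries summed and treated as 1.

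In each comparison a gene was called when its p in edgeR's quasi-likelihood test, adjusted over all genes tested by the Benjamini-Hochberg method, was no larger than 0.05. The log2 fold changes are those of the fit, deprived over control, and are given ± their standard error. All 32 genes passed the filter on low counts. Under Ca deprivation 20 of the 32 were called, 3 higher and 17 lower, where 26.5% of all genes tested were called (12.6% higher and 13.9% lower). Under P deprivation 15 were called, 3 higher and 12 lower, against 29.3% of all genes (15.1% higher and 14.3% lower). Under N deprivation 15 were called, 5 higher and 10 lower, against 20.1% (9.00% higher and 11.1% lower). Under Mg deprivation 4 were called, all higher, against 3.58% (2.34% higher and 1.24% lower). Under K deprivation 1 was called, higher, against 1.26% (0.916% higher and 0.346% lower). Under S deprivation 0 of the 32 were called, against 8.84% (4.22% higher and 4.63% lower). Because these comparisons chose the genes, nothing is read from the distance between the members and the background. Over the 32 genes the median of the log2 fold changes under Ca deprivation was -0.73 and under P deprivation -0.58. It was -0.20 under N deprivation and close to 0 in the others (-0.02 under Mg, -0.07 under S, 0.03 under K), while the median of all genes tested lay between -0.04 and 0.01 in these 6 comparisons.

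**Figure D1:**
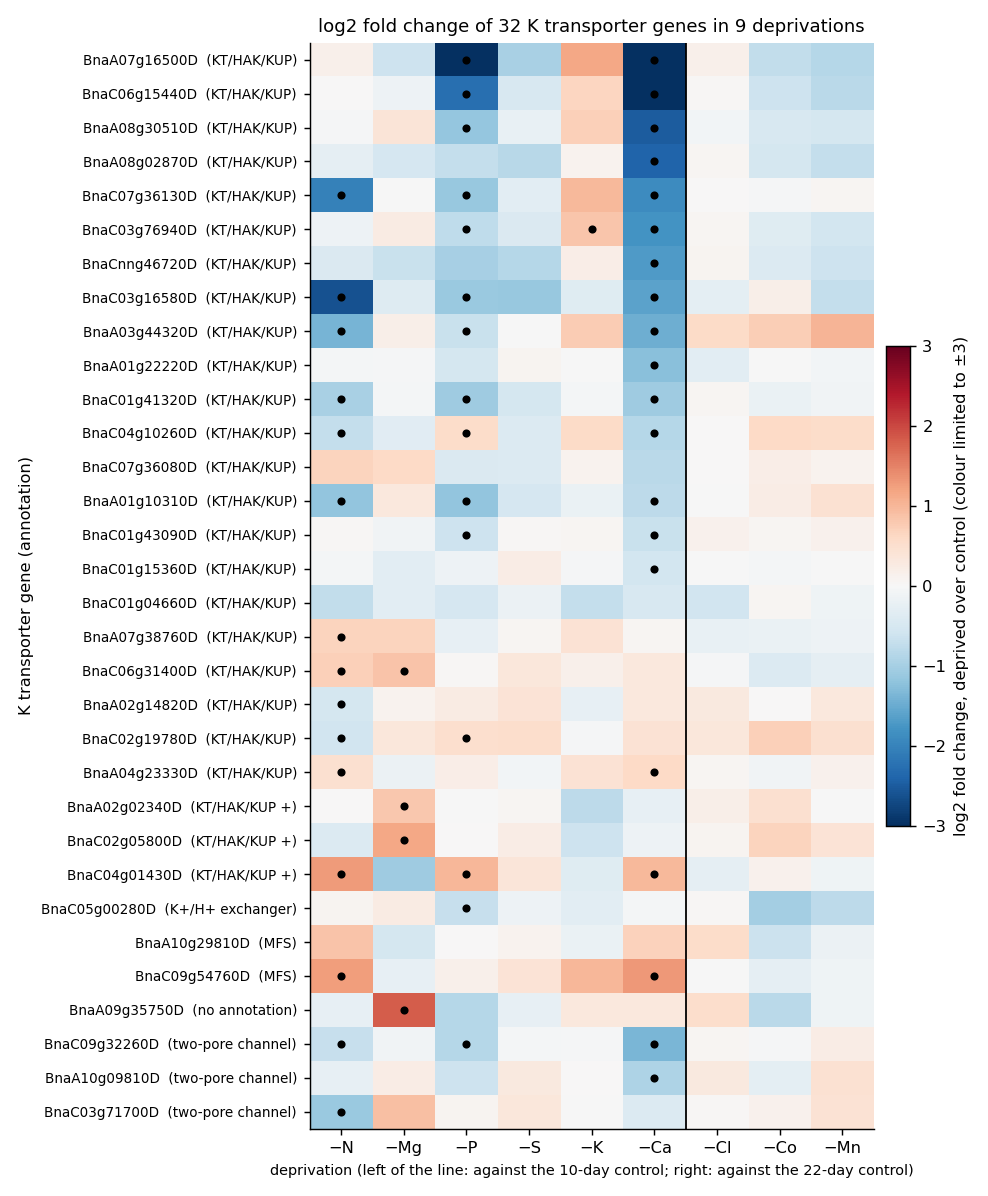
Each row is 1 of the 32 K transporter genes, grouped by annotation (a plus sign marks a further domain, MFS the major facilitator superfamily) and ordered within a group by the change under Ca deprivation, and each column is a deprivation. Colour gives the log2 fold change over the control of the same harvest, limited to ±3, and a black dot marks a called gene; dots lie mostly in the Ca, P and N columns (20, 15 and 15), and the 3 columns right of the line, for the 22-day comparisons, hold 0.

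Of the 32 genes, 3 were called in none of the 6 deprivations, 12 in 1, 8 in 2 and 9 in 3. The 6 comparisons share the 10-day control libraries, so a gene's calls are not independent of each other. The lowest group mean of the 10-day harvest was that of Ca deprivation in 15 genes and the highest was that of K deprivation in 10. These numbers were not obtained for all genes tested, and the 10-day libraries chose the 32 genes, so nothing is read from them. The ratio of highest to lowest 10-day group mean had a median of 2.81 and ran from 1.68 to 1201.

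BnaA07g16500D and BnaC06g15440D, both plain KT/HAK/KUP carriers, changed most. BnaA07g16500D was at 0.171, 0.633 and 0.258 CPM under Ca deprivation, from only 2, 12 and 4 read pairs, against 266, 178 and 129 CPM in the 10-day control. Every Ca-deprived library was thus far below every control library, with a fitted log2 fold change of -8.91 ± 0.48, or 483-fold lower. Under P deprivation it was at 7.85, 12.7 and 14.8 CPM, again below all control libraries (log2 fold change -4.02 ± 0.36). BnaC06g15440D was at 12.8, 13.99 and 13.8 CPM under Ca deprivation, against 693, 466 and 377 CPM in the 10-day control. Its log2 fold change was -5.22 ± 0.27, and the 3 Ca-deprived libraries differed little among themselves. Under P deprivation it was at 109.7, 112 and 97.5 CPM (log2 fold change -2.27 ± 0.24). Both genes were thus lower under Ca than under P deprivation, with no overlap between the libraries of these conditions.

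Neither gene was called in the other 10-day deprivations. BnaA07g16500D was at 298, 485 and 492 CPM under K deprivation (log2 fold change 1.16 ± 0.31), and all 3 of these libraries were above the control libraries. BnaC06g15440D was at 566, 848 and 966 CPM under K deprivation (log2 fold change 0.63 ± 0.23), and overlapped the control. Under N deprivation the log2 fold changes were 0.16 ± 0.31 for BnaA07g16500D and 0.00 ± 0.23 for BnaC06g15440D. Under S deprivation they were -0.98 ± 0.31 and -0.49 ± 0.23 in the same order. The pair held 57.5 to 64.7% of the read pairs of the 32 genes under K deprivation and 45.7 to 55.4% in the 10-day control. Its share was 19.4 to 20.5% under P deprivation and 3.06 to 3.28% under Ca deprivation. The other 30 genes together had 434 to 476 unscaled CPM under Ca deprivation and 446 to 522 under P deprivation, against 603 to 729.7 in the 10-day control.

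**Figure D2:**
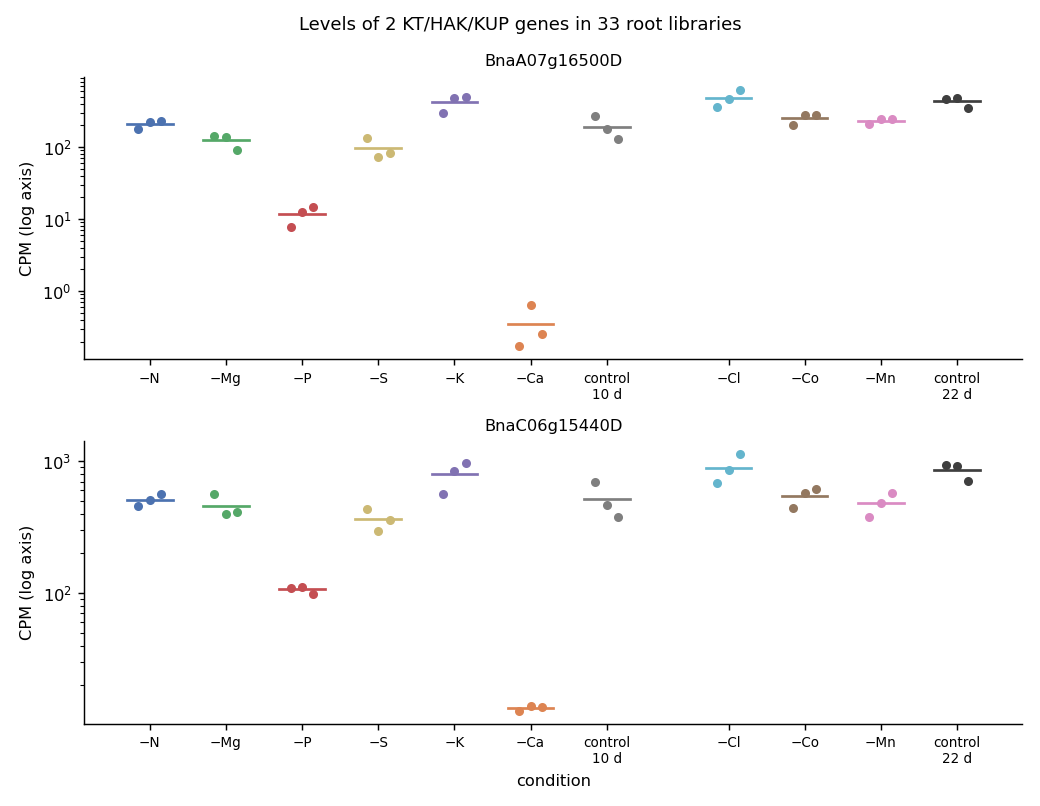
Points are single libraries and horizontal bars the mean of the 3 libraries of a condition, in CPM on a log axis, for BnaA07g16500D (upper panel) and BnaC06g15440D (lower panel) in 11 conditions, the 10-day harvest left and the 22-day harvest right. BnaA07g16500D lay from 0.171 to 0.633 CPM under Ca and from 7.85 to 14.8 CPM under P deprivation, below the 129 to 266 CPM of the 10-day control, and BnaC06g15440D showed the same order with 12.8 to 13.99, 97.5 to 112 and 377 to 693 CPM.

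Under Ca deprivation most of the listed carriers were called lower. Of the 25 KT/HAK/KUP genes of the list 15 were called lower and 2 higher, against 13.9% and 12.6% of all genes tested. In 17 of the 25 all 3 Ca-deprived libraries were below all 3 controls (20.2% of all genes tested did so). Because these libraries had served to choose the list, nothing is read from its distance to all genes or about carriers outside it. The next largest differences after the pair are given here after their values were seen. BnaA08g30510D was at 3.59, 4.49 and 4.13 CPM under Ca deprivation, against 32.9, 21.6 and 16.1 CPM in the control (log2 fold change -2.50 ± 0.21). BnaA08g02870D was at 4.61, 4.12 and 1.93 CPM, against 27.8, 22.97 and 6.48 CPM in the control (log2 fold change -2.41 ± 0.59). Its control libraries were far apart, replicate 3 being the lowest. The 5 genes called under Ca deprivation alone were BnaA08g02870D, BnaCnng46720D, BnaA01g22220D, BnaC01g15360D and the two-pore channel BnaA10g09810D, all lower. The 3 genes called higher were BnaA04g23330D (0.60 ± 0.12), BnaC04g01430D (0.96 ± 0.32) and the major facilitator BnaC09g54760D (1.29 ± 0.30).

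Under P deprivation 10 of the 25 KT/HAK/KUP genes were called lower and 3 higher, against 14.3% and 15.1% of all genes tested. Beyond the pair, the log2 fold changes of the 8 other carriers called lower ran from -1.18 (BnaA01g10310D) to -0.63 (BnaC01g43090D). The 3 called higher were BnaC04g01430D (1.001 ± 0.32), BnaC04g10260D (0.54 ± 0.20) and BnaC02g19780D (0.50 ± 0.18). The count of 15 genes was 9 when the P-deprived replicate 1 or the control replicate 1 or 2 was left out.

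Under N deprivation the largest differences called were those of 2 carriers. BnaC03g16580D, a KT/HAK/KUP gene of low level, was at 0.34, 0.13 and 0.233 CPM from 4, 2 and 4 read pairs under N deprivation, against 1.26, 1.94 and 1.15 CPM in the control. The log2 fold change was -2.61 ± 0.46, without overlap but resting on few read pairs. It was also called lower under Ca (0.598, 0.422 and 0.387 CPM, -1.62 ± 0.41) and P deprivation (0.529, 0.945 and 0.52 CPM, -1.11 ± 0.40). The call under P deprivation rested on 7, 13 and 7 read pairs and was lost by DESeq2, with upper-quartile normalization, without the filter, with only the 6 libraries compared, and without control replicate 1 or 2 or P-deprived replicate 1 or 3. BnaC07g36130D was at 6.30, 10.3 and 7.29 CPM under N deprivation, against 34.6, 26.9 and 37.3 CPM in the control (log2 fold change -2.04 ± 0.27). All its N-deprived libraries were below all controls, and the same held under Ca deprivation (6.83, 8.81 and 10.8 CPM, -1.88 ± 0.26) and P deprivation (15.6, 11.5 and 17.97 CPM, -1.14 ± 0.26). Among the other genes called lower under N deprivation, the carriers BnaA03g44320D (-1.38 ± 0.25) and BnaA01g10310D (-1.18 ± 0.16) had the most negative log2 fold changes. Of the 5 genes called higher under N deprivation, the carrier BnaC04g01430D had the largest log2 fold change, 1.27 ± 0.32. Its annotation also names a mini-chromosome maintenance complex-binding protein, and the counts cannot be assigned to one of the 2 domains. The count of 15 genes was 8 without control replicate 3.

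Under Mg deprivation the 4 genes called were all higher. BnaA09g35750D, which has no domain annotation and a gene ontology term for chloroplast organization, was at 4.67, 3.74 and 4.03 CPM under Mg deprivation, against 1.26, 1.18 and 1.08 CPM in the control. All Mg-deprived libraries were above the other 18 libraries of the 10-day harvest, with a log2 fold change of 1.81 ± 0.27 over the control. BnaC02g05800D, annotated as a K+ potassium transporter with an NHL repeat, was at 125, 68.9 and 104 CPM under Mg deprivation, against 40.1, 38.4 and 53.4 CPM in the control. Its log2 fold change was 1.16 ± 0.23, again without overlap. BnaA02g02340D, the A-subgenome gene with the same annotation, was at 102, 58.6 and 74.7 CPM, against 44.2, 34.6 and 54.6 CPM in the control (log2 fold change 0.81 ± 0.22). Its edgeR adjusted p of 0.0494 was only just within the threshold. The reads of both NHL-repeat genes cannot be assigned to the transporter domain alone. The fourth gene called was BnaC06g31400D, a plain carrier (35.7, 22.2 and 27.6 CPM under Mg deprivation, against 17.9, 13.9 and 15.1 CPM in the control, log2 fold change 0.86 ± 0.17). It was called higher under N deprivation too, at 26.6, 22.8 and 27.3 CPM (0.72 ± 0.17). Without Mg-deprived replicate 1 the count was 1 gene in place of 4.

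Under K deprivation itself 1 of the 32 genes was called by edgeR's quasi-likelihood test. It was BnaC03g76940D, a KT/HAK/KUP carrier, at 35.05, 37.7 and 45.6 CPM under K deprivation, against 26.9, 23.1 and 17.00 CPM in the control. Every K-deprived library was above every control (log2 fold change 0.82 ± 0.18). Under Ca deprivation the same gene was at 6.06, 7.12 and 5.80 CPM and under P deprivation at 10.6, 17.5 and 11.4 CPM, with log2 fold changes of -1.80 ± 0.19 and -0.76 ± 0.19, both called lower. Its P-deprived libraries overlapped the control, and that call was lost with only the 6 libraries compared. In 12 of the 32 genes the unadjusted p under K deprivation was at most 0.05 (13.1% of all genes tested), 9 with positive and 3 with negative log2 fold changes. The largest of these was the 1.16 of BnaA07g16500D and the most negative the -0.79 of BnaA02g02340D. In 8 genes all K-deprived libraries were above all controls and in 3 all were below (15.6% of all genes tested did not overlap, 8.17% with all K-deprived libraries higher and 7.44% with all lower). The 3 below were both NHL-repeat genes, at 23.7, 27.3 and 35.2 CPM (BnaC02g05800D) and 21.7, 25.8 and 29.7 CPM (BnaA02g02340D) under K deprivation, and BnaC01g04660D, at 12.1, 12.2 and 18.5 CPM under K deprivation, against 21.05, 26.01 and 23.2 CPM in the control. These 2 NHL-repeat genes were also called higher under Mg deprivation, BnaA02g02340D only just (edgeR adjusted p = 0.0494).

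The 8 genes whose K-deprived libraries were all above the controls were 7 carriers and the major facilitator BnaC09g54760D. Their log2 fold changes, side by side, were 1.16 under K and -8.91 under Ca deprivation for BnaA07g16500D, 1.01 under K and 1.29 under Ca deprivation for BnaC09g54760D, 0.97 under K and -1.88 under Ca deprivation for BnaC07g36130D and 0.82 under K and -1.80 under Ca deprivation for BnaC03g76940D. For the other 4 they were 0.75 under K and -1.46 under Ca deprivation for BnaA03g44320D, 0.72 under K and -2.50 under Ca deprivation for BnaA08g30510D, 0.58 under K and -0.86 under Ca deprivation for BnaC04g10260D and 0.44 under K and 0.60 under Ca deprivation for BnaA04g23330D. Both comparisons share the control libraries, so the values of a gene are not independent. BnaC07g36130D, for example, was at 41.6, 90.3 and 62.3 CPM under K and 6.83, 8.81 and 10.8 CPM under Ca deprivation, against 34.6, 26.9 and 37.3 CPM in the control. The K count depended on the test and on single libraries. It was 5 by edgeR's likelihood ratio test, which the study used, and by DESeq2, and 0 to 3 with 1 library left out (0 without control replicate 2 or 3 or K-deprived replicate 2 or 3, 3 without control replicate 1, and 2 without K-deprived replicate 1). Shares of all genes called in these refits are not given here, so nothing about the members alone is read from the change in count.

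**Figure D3:**
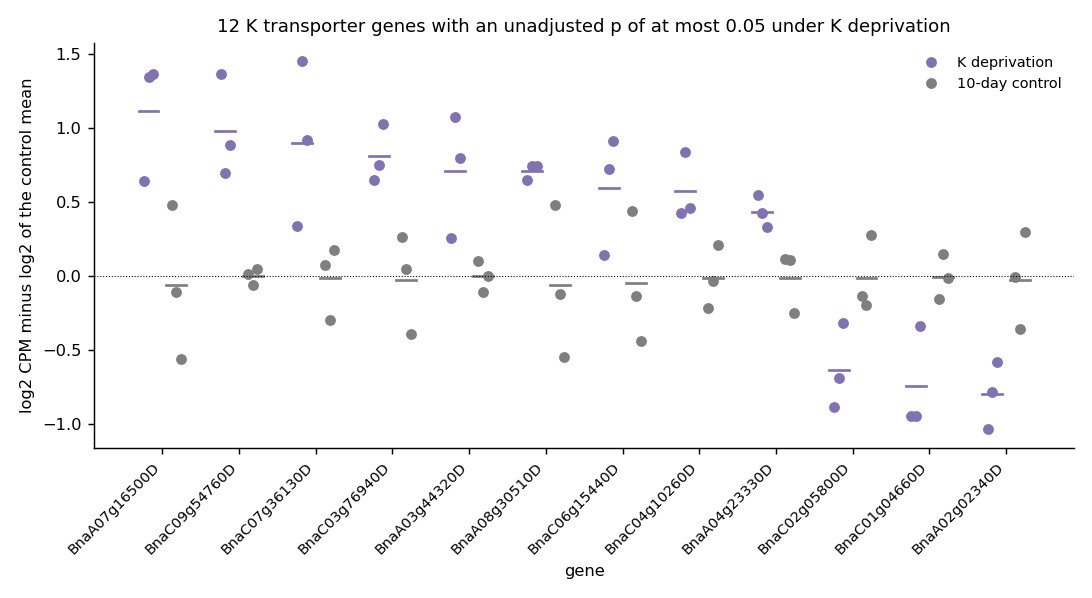
Points are the log2 CPM of single libraries minus the log2 of the control mean, for K deprivation (left of each gene) and the 10-day control (right), with bars at the group means, for the 12 K transporter genes whose unadjusted p under K deprivation was at most 0.05. In 9 genes the K-deprived libraries lie higher on average and in 3 lower; BnaC03g76940D is the 1 called after adjustment, and the libraries of BnaC06g15440D overlap between the groups.

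S deprivation gave the fewest calls, 0 of the 32 genes, where 8.84% of all genes tested were called. The largest positive log2 fold change was 0.54 ± 0.18 for BnaC02g19780D and the most negative was -1.13 ± 0.40 for BnaC03g16580D, a gene of 8 to 10 read pairs in the S-deprived libraries. The unadjusted p was at most 0.05 in 8 genes, against 26.4% of all genes tested. By the likelihood ratio test and by DESeq2, 2 genes were called, both lower, BnaA07g16500D and BnaA01g10310D.

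In 3 genes the calls had opposite directions. BnaC03g76940D was called higher under K and lower under P and Ca deprivation, as above. BnaC02g19780D was at 6.04, 7.09 and 6.53 CPM under N and 16.99, 12.2 and 12.7 CPM under P deprivation, against 10.9, 8.78 and 9.87 CPM in the control, called lower under N and higher under P deprivation. BnaC04g10260D was at 5.45, 7.02 and 7.99 CPM under N, 19.4, 14.5 and 15.7 CPM under P and 5.38, 5.96 and 7.16 CPM under Ca deprivation, against 9.74, 11.1 and 13.1 CPM in the control, called higher under P and lower under N and Ca deprivation. The edgeR adjusted p of BnaC02g19780D was 0.0333 under N and 0.0425 under P deprivation. For BnaC04g10260D it was 0.0430 under P, 0.0184 under N and 0.00428 under Ca deprivation. Refits of these calls are not given here, and the share of all genes with opposite calls was not obtained. At the edge of the calls, 3 genes were called in none of the 6 deprivations by this test, although the study had listed them. Their largest differences were 0.86 ± 0.33 for BnaA10g29810D under N, -0.74 ± 0.28 for BnaC01g04660D under N and -0.81 ± 0.31 for BnaC07g36080D under Ca deprivation. By the likelihood ratio test each of these 3 differences was called. The smallest difference that was called was the 0.48 ± 0.12 of BnaA04g23330D under N deprivation.

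Of the 3 two-pore channels 2 were called lower under Ca, 2 under N and 1 under P deprivation. Of all genes tested 13.9%, 11.1% and 14.3% were called lower, in the same order. BnaC09g32260D was at 5.12, 3.80 and 3.80 CPM under Ca deprivation, against 11.4, 10.9 and 10.8 CPM in the control (log2 fold change -1.37 ± 0.18). It was also called lower under P (6.87, 5.82 and 5.49 CPM, -0.87 ± 0.17) and N deprivation (7.23, 7.41 and 5.89 CPM, -0.68 ± 0.17), and its 3 controls were close together. The call under N deprivation was lost without N-deprived replicate 3. BnaC03g71700D was at 3.15, 2.02 and 0.991 CPM under N deprivation, against 3.85, 3.55 and 5.55 CPM in the control. It was called lower (log2 fold change -1.11 ± 0.29), but not without N-deprived replicate 3 or control replicate 3. Under Mg deprivation it was at 9.55, 7.85 and 7.13 CPM, above all controls, with 0.91 ± 0.27, which was not called. BnaA10g09810D was at 1.28, 1.27 and 2.32 CPM under Ca deprivation, against 2.98, 2.70 and 3.74 CPM in the control. It was called lower (log2 fold change -0.94 ± 0.24), but not without Ca-deprived replicate 2. Under P deprivation it was at 1.81, 1.89 and 2.45 CPM, below all controls, with -0.62 ± 0.24, which was not called. Differences between the channels were not tested. Under K deprivation the 3 channels had log2 fold changes of -0.03, -0.0037 and 0.00088 in the same order, and the libraries of all 3 overlapped the control.

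The K+/H+ exchanger BnaC05g00280D was at 29.8, 25.1 and 26.3 CPM under P deprivation, against 61.2, 39.4 and 30.03 CPM in the control. It was called lower (log2 fold change -0.68 ± 0.24), but this moved to -0.37 and was not called without control replicate 1, the highest of the controls. The call was also lost without control replicate 2 or any one of the P-deprived replicates. Its other 10-day differences lay between -0.32 under K and 0.24 under Mg deprivation and were not called.

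The 2 major facilitator genes had their highest group means of the 10-day harvest under N and Ca deprivation and their lowest under Mg deprivation. BnaC09g54760D was at 2.99, 4.43 and 2.19 CPM under Ca and 3.32, 2.73 and 3.38 CPM under N deprivation, against 1.34, 1.27 and 1.37 CPM in the control. Both were called higher, with 1.29 ± 0.30 and 1.25 ± 0.30. Under K deprivation it was at 3.41, 2.15 and 2.45 CPM, also above all controls, with 1.01 ± 0.31, which was not called. BnaA10g29810D was at 18.9, 17.8 and 21.9 CPM under N and 29.1, 11.6 and 11.7 CPM under Ca deprivation, against 16.4, 7.18 and 9.002 CPM in the control, and was called in neither. Its Ca-deprived replicate 1 and its control replicate 1 were each far above the other libraries of their group.

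**Figure D4:**
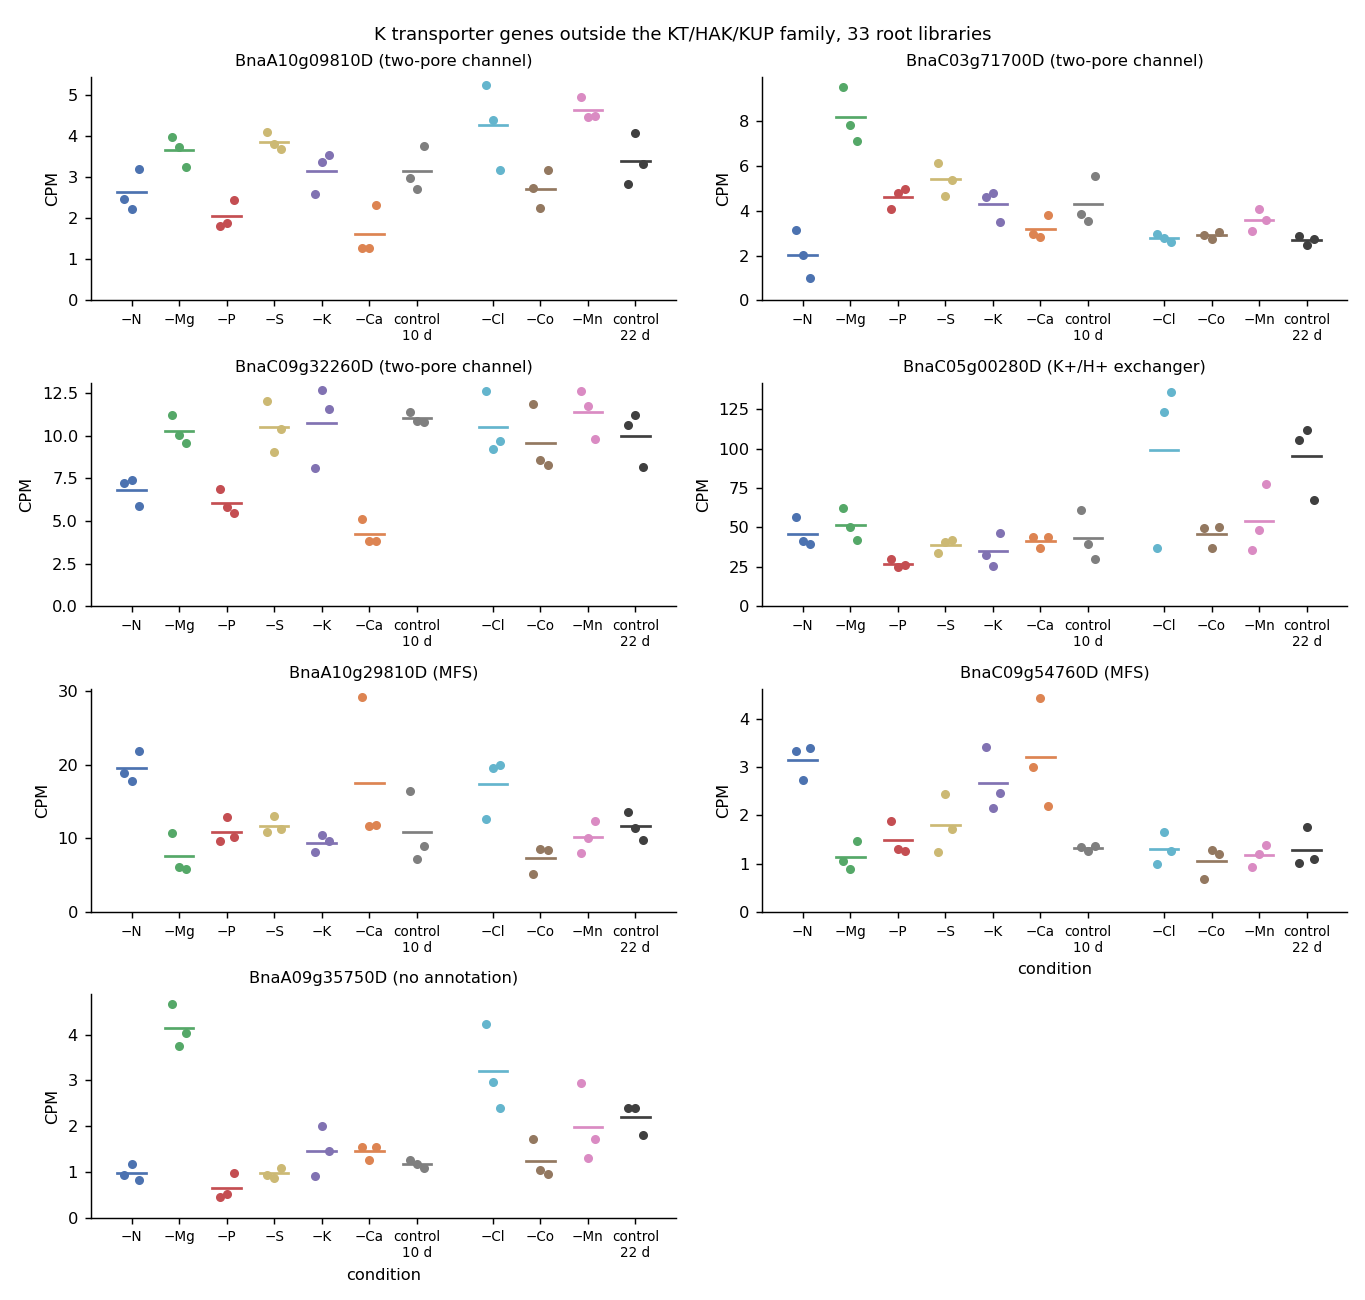
Points are single libraries and bars the mean of 3, in CPM on linear axes from 0, for the 7 genes outside the KT/HAK/KUP family in 11 conditions (10-day harvest left, 22-day harvest right; MFS stands for the major facilitator superfamily). BnaC09g32260D lay at 3.80 to 5.12 CPM under Ca deprivation, below its control at 10.8 to 11.4 CPM, and BnaA09g35750D at 3.74 to 4.67 CPM under Mg deprivation, above its control at 1.08 to 1.26 CPM.

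The study drew its list from the 10-day comparisons, so the rule did not use the 22-day libraries, and their tests are given here. None of the 32 genes was called under Cl, Co or Mn deprivation by edgeR's quasi-likelihood test, and neither was any of the 54251 genes tested (0% in each of the 3 comparisons). The smallest adjusted p of a member in edgeR was 1.0 under Cl, 0.473 under Co and 0.363 under Mn deprivation. The unadjusted p was at most 0.05 in 2 of the 32 genes under Cl, 9 under Co and 8 under Mn deprivation, against 4.10%, 10.3% and 11.7% of all genes. With the nearly identical control libraries counted as 1, these numbers were 2, 5 and 4 of the 32 genes, against 2.81%, 6.16% and 7.31% of all genes, and none of the 32 was called. By DESeq2 1 gene was called under Mn deprivation, BnaA07g16500D, at a log2 fold change of -0.87 and an adjusted p of 0.0461, and 0 under Cl and Co deprivation. With the nearly identical control libraries counted as 1, DESeq2 called none of the 32 genes (adjusted p = 0.384 for BnaA07g16500D, log2 fold change -0.80). By DESeq2 34, 52 and 182 of all genes were called under Cl, Co and Mn deprivation, and by the likelihood ratio test 33, 77 and 182, among them none of the 32.

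The pair of carriers that was lowest under Ca and P deprivation also lay below the 22-day control under Mn and Co deprivation, although neither gene was called. BnaA07g16500D was at 211, 244 and 244 CPM under Mn and 204, 276 and 282 CPM under Co deprivation, against 471, 475 and 343 CPM in the 22-day control. All libraries of both deprivations were below all controls, with log2 fold changes of -0.86 ± 0.23 under Mn (edgeR unadjusted p = 0.00313, adjusted p = 0.363) and -0.74 ± 0.23 under Co deprivation (edgeR unadjusted p = 0.00804, adjusted p = 0.473). Of all genes tested, 10.6% under Mn and 11.2% under Co deprivation likewise had all deprived libraries below all controls. BnaC06g15440D was at 379, 479 and 577 CPM under Mn and 438, 575 and 619 CPM under Co deprivation, against 936, 923 and 707 CPM in the 22-day control. Again the libraries did not overlap, with -0.81 ± 0.25 and -0.63 ± 0.25 (edgeR adjusted p = 0.368 and 0.473). With the nearly identical control libraries counted as 1, the log2 fold changes of BnaA07g16500D were -0.78 ± 0.27 under Mn and -0.67 ± 0.27 under Co deprivation (edgeR adjusted p = 0.671 and 0.737). Those of BnaC06g15440D were -0.75 ± 0.29 and -0.57 ± 0.29 (edgeR adjusted p = 0.671 and 0.737). Under Cl deprivation both overlapped the control, at 357, 469 and 619 CPM for BnaA07g16500D (0.14 ± 0.23) and 677, 849 and 1127 CPM for BnaC06g15440D (0.03 ± 0.25).

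Levels above the 22-day control are shown for a pair of carriers singled out after their values were seen. BnaA03g44320D was at 3.38, 2.23 and 2.24 CPM under Cl, 2.74, 3.44 and 2.41 CPM under Co and 4.09, 3.69 and 2.60 CPM under Mn deprivation, against 1.88, 2.11 and 1.18 CPM in the 22-day control. BnaC02g19780D was at 11.3, 10.2 and 14.2 CPM under Cl, 11.3, 16.9 and 17.1 CPM under Co and 11.3, 12.7 and 14.1 CPM under Mn deprivation, against 9.84, 8.81 and 9.13 CPM in the control. The 3 comparisons share the control libraries, 2 of which are nearly identical, so a gene's 3 differences are not independent of each other. The largest of these differences was that of BnaA03g44320D under Mn deprivation, 1.03 ± 0.29 (edgeR adjusted p = 0.363), or 1.11 ± 0.33 with the 2 control libraries counted as 1 (edgeR adjusted p = 0.671).

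The exchanger BnaC05g00280D was at 49.8, 37.2 and 50.5 CPM under Co deprivation, against 106, 112 and 67.4 CPM in the 22-day control, a log2 fold change of -1.03 ± 0.42 without overlap (edgeR adjusted p = 0.473). All Co-deprived libraries were below all controls in 11.2% of all genes tested. With the 2 control libraries counted as 1 the log2 fold change of the exchanger was -0.92 ± 0.47 (edgeR adjusted p = 0.737). Under Cl deprivation its replicate 1 was far below replicates 2 and 3, at 37.1, 123 and 136 CPM. Over the 32 genes the 95% intervals of the log2 fold changes reached from -0.96 to 1.26 under Cl, from -1.94 to 1.36 under Co and from -1.70 to 1.65 under Mn deprivation. The ratio of highest to lowest group mean within the 22-day harvest had a median of 1.44 over the 32 genes and ran from 1.06 to 2.60.

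**Figure D5:**
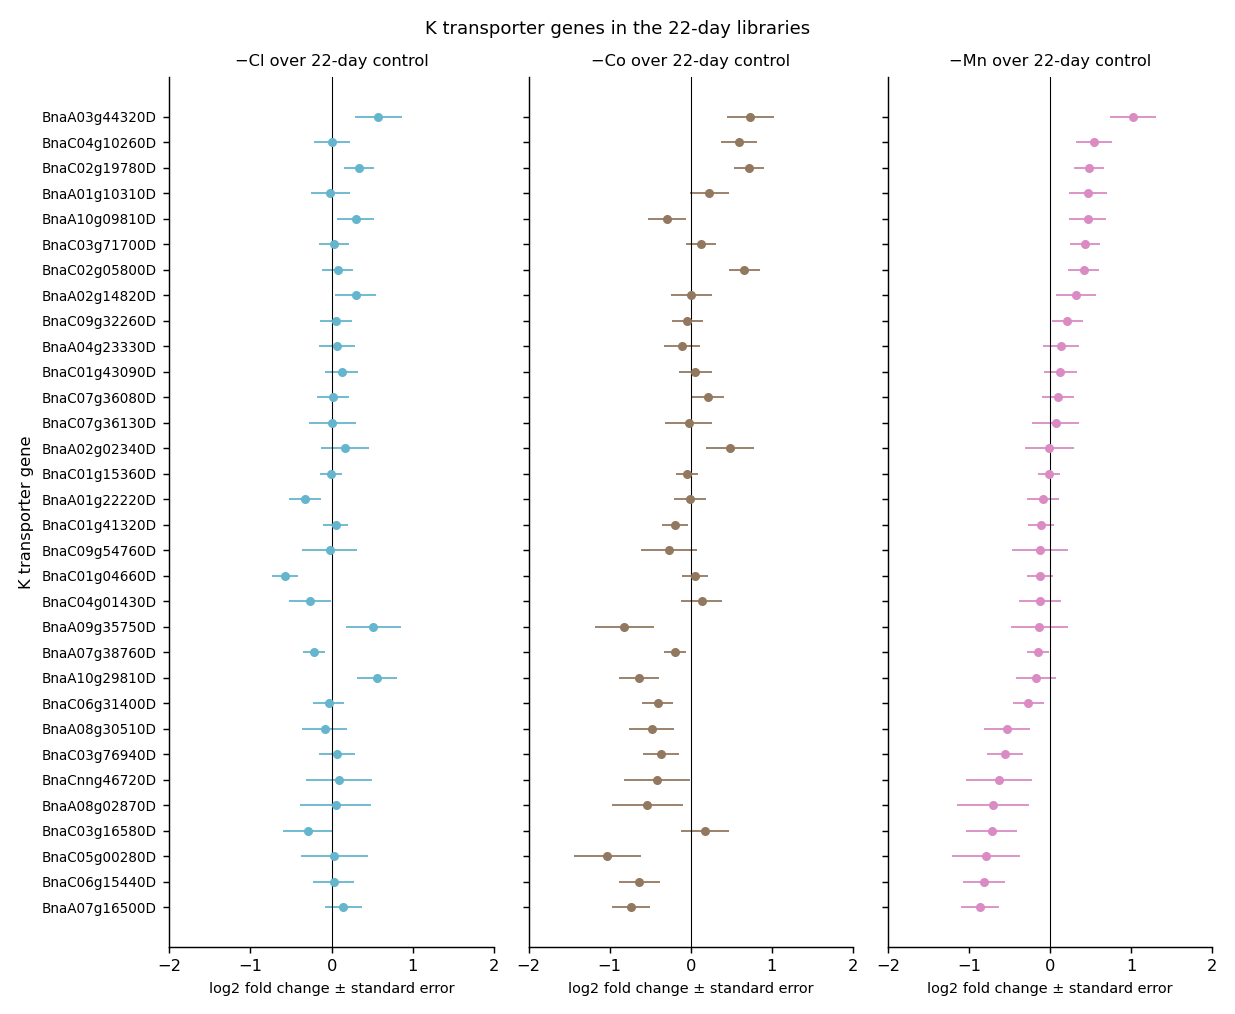
Points are the log2 fold changes of the 32 K transporter genes under Cl, Co and Mn deprivation over the 22-day control, with bars of 1 standard error, in the order of the change under Mn deprivation. Most points lie near 0, the extremes being -0.86 (BnaA07g16500D) and 1.03 (BnaA03g44320D) under Mn and -1.03 (BnaC05g00280D) under Co deprivation, and none was called by edgeR's quasi-likelihood test.

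Between the control harvests, age and harvest date cannot be told apart, and the 10-day control had served to choose the genes, so the values are a description. Of the 32 genes 2 were called (0.647% of all genes tested, 0.372% higher and 0.275% lower). BnaC06g31400D was at 29.8, 32.6 and 33.1 CPM in the 22-day control, against 17.9, 13.9 and 15.1 CPM in the 10-day control (log2 fold change 1.02 ± 0.18). BnaA03g44320D was at 1.88, 2.11 and 1.18 CPM in the 22-day control, against 4.48, 3.88 and 4.18 CPM in the 10-day control (log2 fold change -1.27 ± 0.26). With the nearly identical control libraries counted as 1, the count was 1 in place of 2, and the call lost was that of BnaA03g44320D. That call was also lost without any one of the 22-day control libraries. BnaA07g16500D was at 471, 475 and 343 CPM in the 22-day control, against 266, 178 and 129 CPM in the 10-day control, and at 1.17 ± 0.30 was not called.

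The Na and Na symport genes of the same list, 16 in all, had most of their lower calls under P and Ca deprivation. Under P deprivation 1 was called higher and 8 lower, under Ca 3 higher and 7 lower, under N 2 higher and 1 lower, under Mg 1 higher and 2 lower, under S 1 lower and under K deprivation 1 higher and 2 lower. Of all genes tested, 15.1% were called higher and 14.3% lower under P, and 12.6% and 13.9% under Ca deprivation. These shares were 9.00% and 11.1% under N, 2.34% and 1.24% under Mg, 4.22% and 4.63% under S and 0.916% and 0.346% under K deprivation. Over all genes, too, the largest shares called lower were thus those of P and Ca deprivation. None of the 16 was called at 22 days. The gene called higher under K deprivation, BnaA02g22130D, annotated as a cation transporter and named after its values were seen, had 4770, 7844 and 4772 read pairs under K deprivation, against 390, 69 and 265 in the 10-day control. Its log2 fold change of 4.54 (SE 0.58) exceeded that of every K transporter gene under K deprivation. The same gene was also called higher under Mg deprivation, with 1793, 1264 and 466 read pairs (log2 fold change 1.99, SE 0.53). Its 3 Ca-deprived libraries held 5, 2 and 5 read pairs and its P-deprived libraries 3, 0 and 2, at or below the 3 read pairs taken here as the limit of measurement under P deprivation. Among the 270 other genes of the list, 148 were called under P, 158 under Ca, 112 under N, 40 under S, 33 under Mg and 15 under K deprivation. Of all genes tested 29.3%, 26.5%, 20.1%, 8.84%, 3.58% and 1.26% were called, in the same order. The 270 genes too had been chosen on the 10-day libraries, and their counts are given only for size.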

How the data were processed

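The deposited values used here are counts: the authors made stranded, poly(A)-selected libraries, aligned the trimmed read pairs with STAR and counted, for each gene of the Genoscope annotation, pairs that mapped to 1 place only, without normalization. Near-identical A and C copies are therefore covered only by reads that tell them apart. The column for the strand of the gene was used; the opposite strand held at most 0.782% of gene counts in a library. The edgeR 4.0.16 quasi-likelihood test in R 4.3.3 (filterByExpr, TMM, 1 coefficient per condition) was fitted on 21 libraries at 10 days, 12 at 22 days and all 33 for the controls of both harvests; a call is an adjusted p (Benjamini-Hochberg) no larger than 0.05. The study used edgeR's likelihood ratio test, which was an alternative here. Standard errors were computed from the fold change and the F statistic (absolute log2 value over the root of F). Alternatives were the likelihood ratio test, DESeq2 1.42.0, normalization by RLE or by the upper quartile, no filter, only the 6 libraries compared, a replicate block, each library left out and, chosen after seeing the data, the nearly identical 22-day controls as 1 library, in edgeR and in DESeq2. The 95% intervals use the t distribution on each gene's total degrees of freedom.

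The members and lists were chosen with earlier results of these data known. Values in every library are given for members called under K deprivation, the 2 called members with the largest absolute log2 fold change under each of N, Mg, P, S and Ca deprivation, members called at 22 days, and all members outside the KT/HAK/KUP family; others named were chosen after their values were seen, as were the carriers BnaA08g30510D, BnaA08g02870D, BnaC06g31400D, BnaC04g10260D, BnaC01g04660D and BnaA02g02340D. A gene with 3 or fewer read pairs in every library of a condition is given no fold change there. Figures were drawn with matplotlib. The labels state 2 growth temperatures, only the cooler of which is in the paper. Which of them held for each harvest is not known here.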

Additional observations from a re-analysis of the deposited data

How the results depend on the processing

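Of the calls of single genes that the report gives for its rule-chosen genes, 23 in all, 299 refits gave 269 calls again and 30 differences of the same direction that were not called, and none changed direction; 14 of the 23 were called in every refit. The other 9 were BnaA09g35750D and BnaC02g05800D under Mg, BnaA10g09810D under Ca, BnaC03g71700D and BnaC09g32260D under N, BnaC03g16580D and BnaC05g00280D under P, and BnaC03g76940D under K and P deprivation. The counts of K transporter genes called moved by more than 1.5 times as follows, and the cause was not tested. For the 10-day and control-harvest refits, the shares of all genes called are not set beside the counts, here or above. Whether the members moved apart from all genes was therefore not tested. With only the 6 libraries compared, the count was 0 under Mg, 9 under P and 0 under K deprivation and 0 between the controls, a fit with fewer libraries behind the spread. By the likelihood ratio test it was 2 under S and 5 under K deprivation and 5 between the controls, and by DESeq2 2, 5 and 5, with 1 under Mn deprivation, which was 0 by DESeq2 with the 22-day control replicates 1 and 2 as 1 library. With upper-quartile normalization it was 1 under S deprivation, and with the 22-day control replicates 1 and 2 as 1 library it was 1 between the controls. With 1 library left out, the counts ran from 8 to 14 under N, 1 to 5 under Mg, 9 to 12 under P, 0 to 1 under S, 0 to 3 under K and 16 to 19 under Ca deprivation, stayed at 0 under Cl, Co and Mn deprivation, and ran from 0 to 5 between the controls (5 without 10-day control replicate 1, 0 without replicate 3, and 1 without any one of the 22-day controls). Under S deprivation the count was 1 without control replicate 1 or S-deprived replicate 2. No scaling moved the median of all genes by as much as 0.1 on the log2 scale.

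The replicate numbers were shared between conditions, but libraries with the same number did not deviate together: their correlations ran from -0.309 to 0.461, all 3 were over 0.1 in 1 of 10 comparisons (Co deprivation), and in none did every library correlate best with its own number. With the replicate block the counts were 16 under N, 4 under Mg, 14 under P, 0 under S, 1 under K, 20 under Ca and 0 under Cl, Co and Mn deprivation, and 2 between the controls.

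The 3 libraries per condition limit the precision, and 2 of the 22-day controls are nearly 1. BnaC03g16580D rests on 2 to 4 read pairs per library under N deprivation, and BnaA07g16500D on 2 to 12 under Ca deprivation. A member whose p missed the threshold is not shown to be unchanged.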
